A study of Saccharomyces cerevisiae with 2 samples.

Results

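FLO9, FLO1 and FLO11 encode flocculins, cell wall adhesins of budding yeast. These 3 genes, out of 6431 nuclear genes in the RefSeq table, were chosen by name, because their promoters are long and their coding sequences hold repeats. Nucleosomes of yeast were profiled by MNase-seq, in which micrococcal nuclease cuts the linker DNA between nucleosomes and the protected DNA of mononucleosomal size is sequenced. The cells were grown in YPD medium and fixed with formaldehyde. There was 1 condition with 2 libraries, called replicate 1 and replicate 2, and the labels do not say whether they came from separate cultures. The labels give no strain, and the study's list of data sets names the laboratory strain BY for its yeast nucleosome data. Replicate 1 held 21973866 reads and replicate 2 held 19288900.

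Flocculins sit in the cell wall and bind cells to each other or to surfaces. FLO1 and FLO9 encode lectin-like proteins with an N-terminal sugar-binding domain, a central block of tandem repeats rich in serine and threonine, and a C-terminal part that anchors the protein in the wall. FLO11 encodes a related mucin-like protein needed for invasive and filamentous growth and for mats, which is also rich in repeats. FLO1 is a textbook gene of repression by the Tup1-Ssn6 corepressor, which keeps nucleosomes over its upstream region, and SWI/SNF remodels them when the gene is turned on. The FLO11 promoter is one of the longest in yeast. Many activators and repressors act on it, and the noncoding RNAs ICR1 and PWR1 are transcribed across it. Flo8 activates FLO1 and FLO11, and laboratory strains derived from S288C carry a defective FLO8, so that both genes are mostly silent there. No RNA was measured here.

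The genes lie toward the ends of their chromosomes. FLO9 was taken as 24000 to 27968 of chromosome 1 on the minus strand, 23999 bp from the left end. FLO1 was taken as 203403 to 208016 of chromosome 1 on the plus strand, 22193 bp from the last base with a read. FLO11 was taken as 389572 to 393675 of chromosome 9 on the minus strand, 46209 bp from the last base with a read. These edges are those of assembly R64, whereas the submitters' processing notes name sacCer2 for the reads, so each edge may be off by up to 20 bp. The promoter was the 3.5 kb upstream of the start codon, and positions are counted from the first coding base, with negative numbers upstream. In the order of the RefSeq table the next gene upstream is GDH3, a glutamate dehydrogenase gene, for FLO9 and SWH1, an oxysterol-binding protein gene, for FLO1. Upstream of FLO11 follow ICR1, YIR020C, PWR1 and MRS1, a gene for mitochondrial RNA splicing.

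Large parts of the coding sequences held no read at all. A stretch was called read-free when at least 100 successive bases were covered by none of the 36 sequenced bases of any read in either library. The 3 genes held 10 such stretches, and together these took up 4852 of 12687 coding bases. Of the FLO9 coding sequence 51.2% was read-free (2034 of 3969 bp), of FLO1 44.5% (2051 of 4614 bp) and of FLO11 18.7% (767 of 4104 bp). Read-free stretches made up 11.6% of all bases of chromosome 1, 6.14% of chromosome 9 and 5.23% of the 16 nuclear chromosomes. The libraries hardly differed in this, since either library taken alone gave between 2040 and 2046 bases for FLO9, 2052 and 2056 for FLO1, and 767 and 769 for FLO11.

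The longest stretch began at nearly the same distance from the start codon in FLO1 and FLO9. In FLO1 it ran over 1625 bp, from coding base 856 to 2480. At the mean density of chromosome 1 it would have held 3611 reads of replicate 1 and 3125 of replicate 2. In an interval chosen beforehand a count of 0 allows up to 3 reads, which is 0.0831% and 0.0960% of those numbers and covers counting error only. This stretch was defined by holding no read, so its count of 0 was set by the rule and these floors are no test. In FLO9 the longest stretch ran over 1223 bp, from 865 to 2087. It was followed by a covered island of 64 bp, a read-free stretch of 291 bp from 2152 to 2442, and one of 133 bp from 2651 to 2783. FLO9 also had a read-free stretch of 494 bp across its stop codon, from 3583 to 4076, whereas the last 500 coding bases of FLO1 held no such stretch.

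In FLO1 shorter stretches stood near the start codon, at 85 to 193 and 262 to 456, and another at 2715 to 2836. The 5′ end of FLO9 had none of at least 100 bp. In FLO11 there were 2 stretches, of 463 bp from 1086 to 1548 and of 304 bp from 2004 to 2307, on either side of a covered segment of 455 bp. Reads that fit several places may have been left out or placed elsewhere by the authors, which the sources used here do not state. A stretch without reads can therefore be repeated sequence or sequence without protected DNA, or have another cause. These were not tested and, without a genome sequence, cannot be told apart here.

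**Figure D1:**
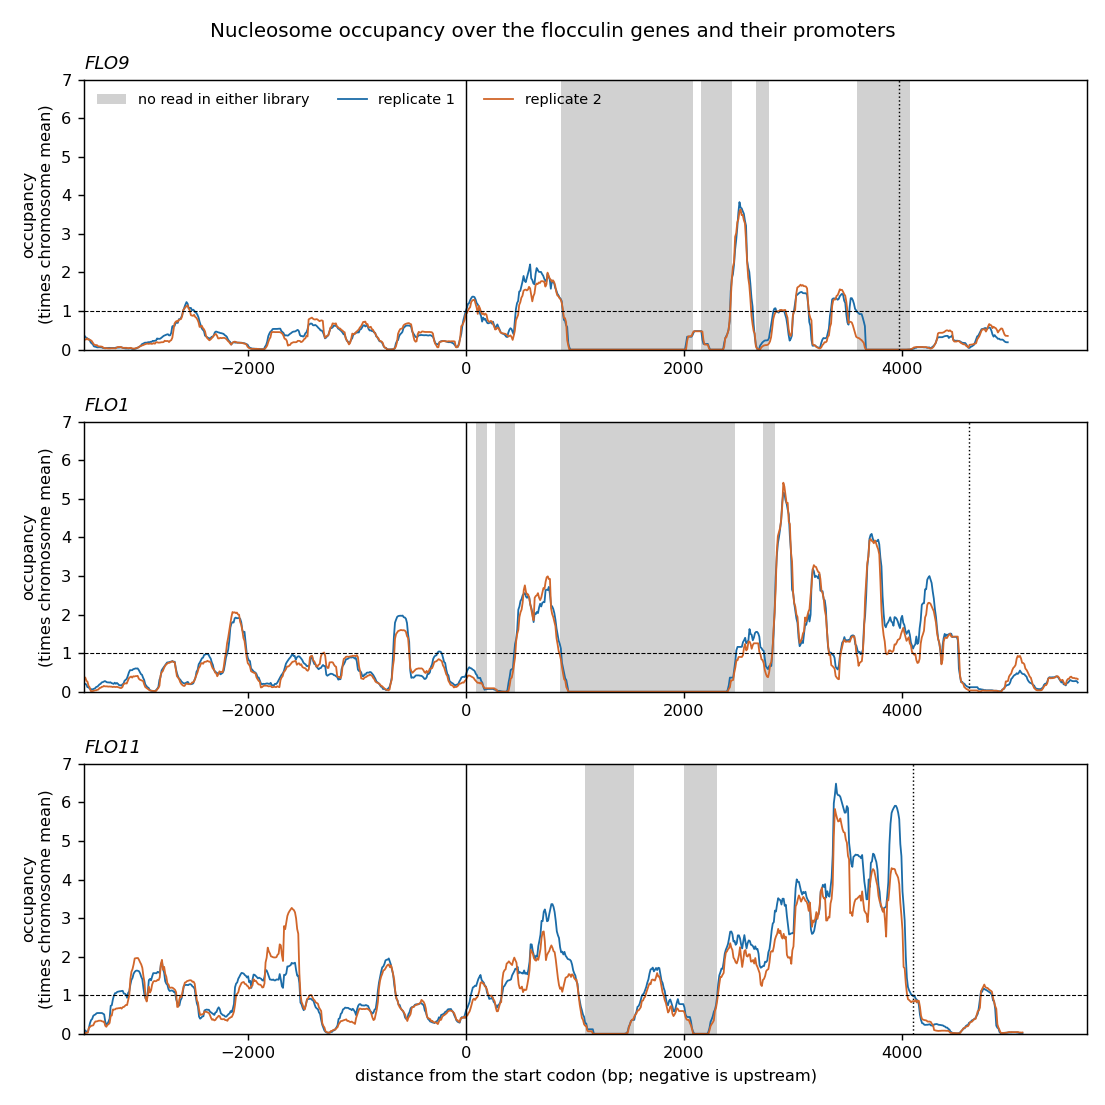
Occupancy along FLO9, FLO1 and FLO11, as times the chromosome mean, against the distance from the start codon in bp. Lines show each library, grey bands the read-free stretches, the solid vertical line the start codon and the dotted one the stop codon. The libraries share most peaks but not all (-1757 of FLO11 was called 140 bp apart), the read-free blocks of FLO1 and FLO9 begin at 856 and 865, and FLO11 is highest in the last part of its coding sequence.

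The coding sequence that could be read was denser than the chromosome mean in FLO11 and FLO1 and close to it in FLO9. Read density was the number of read centres per base, after each 5′ end had been moved inward, by 47 bp for reads of replicate 1 and by 42 bp for those of replicate 2. It was taken outside read-free stretches and the 150 bp beside them, and divided by the same mean over the chromosome. FLO11 was at 2.85 times the mean of chromosome 9 in replicate 1 and 2.38 times in replicate 2 (2.61 ± 0.326, SD, n = 2 libraries), over 2737 bp. FLO1 was at 1.80 and 1.63 times the mean of chromosome 1 (1.71 ± 0.121, SD, n = 2 libraries), over 1727 bp. FLO9 was at 1.08 and 1.01 times that mean (1.04 ± 0.0502, SD, n = 2 libraries), over 1213 bp. The gap between FLO11 and FLO1 and that between FLO1 and FLO9 were larger than the spread between the libraries, and the values of the genes did not overlap. FLO9 lay within 1 SD of the chromosome mean, where the SD covers only the spread between the libraries. With 1 read counted per position and strand FLO9 was at 0.913 times, and with the bases beside read-free stretches kept at 1.24 times. With 2 libraries of 1 condition no test was made, and windows of a chromosome are not replicates.

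The high value of FLO11 came mainly from the 3′ part of the gene, which encodes the C-terminal part of the protein. Its segment from coding base 2308 to 4104 held 12595 reads of replicate 1 and 9204 of replicate 2, which was 3.60 and 3.01 times the chromosome mean (3.30 ± 0.411, SD, n = 2 libraries). Among the 7818 windows of the same length on chromosome 9, placed every 50 bp, only 3 were fuller in replicate 1 and 4 in replicate 2. All of these shared bases with the segment, so no window elsewhere on the chromosome was fuller in either library. Over the 16 nuclear chromosomes 99.99% of 217856 windows were lower in replicate 1 and 99.98% in replicate 2. The windows overlap one another, so these shares are a description.

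The 5′ part of FLO11, from base 1 to 1085, was lower, at 1.72 and 1.44 times the mean (1.58 ± 0.203, SD, n = 2 libraries). The covered segment between the read-free stretches was at 1.65 and 1.41 times over the 155 bp that could be used. The 3′ segment of FLO11 thus exceeded both other segments of the gene in each library by more than the spread between libraries.

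FLO1 was also high 3′ of its read-free block. The segment from 2837 to 4614, beyond its read-free stretches and up to the stop codon, held 8121 and 6491 reads and was at 1.76 and 1.58 times the mean (1.67 ± 0.130, SD, n = 2 libraries). Of 3603 windows of this length on chromosome 1, 93.1% were lower in replicate 1 and 91.4% in replicate 2. On the 5′ side only 99 bp lay far enough from a read-free stretch, between 457 and 855, and they were at 2.37 and 2.39 times the mean. The segments of FLO9 were lower. Its 5′ segment, from 1 to 864, was at 1.22 and 1.10 times the mean, and its 3′ segment, from 2784 to 3582, at 0.877 and 0.878 times. The lower of these values lay near the middle of the windows of chromosome 1, with 51.9% of 3758 windows lower in replicate 1 and 52.3% in replicate 2.

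**Figure D2:**
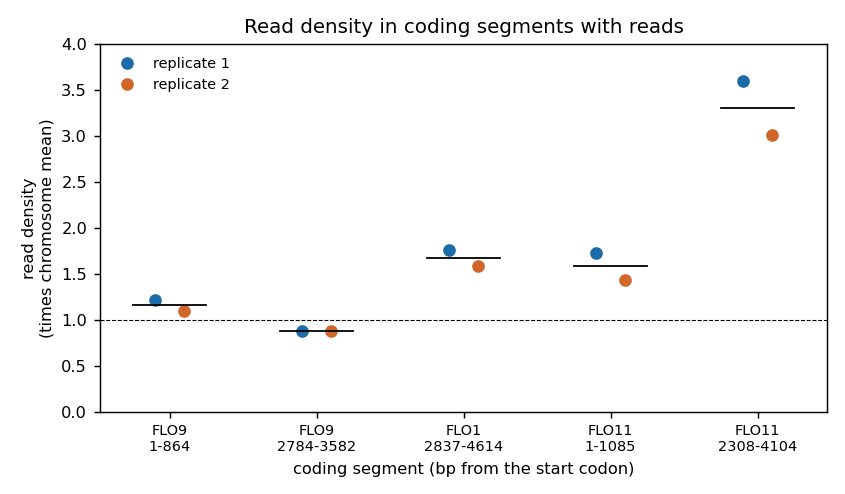
Read density, as times the chromosome mean, in the 5 coding segments between read-free stretches that kept at least 400 usable bp (of 12 segments), with positions in bp from the start codon. Points are libraries, bars their means, and the dashed line the chromosome mean. The 3′ segment of FLO11 stands at 3.60 and 3.01, above all others, and the FLO9 segments lie close to 1.

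All 5 of these segments held more reads at each occupied position than the nuclear chromosomes did. The 3′ segment of FLO11 had 7.26 reads per occupied position and strand in replicate 1 and 5.80 in replicate 2, and that of FLO1 7.35 and 6.54. The FLO9 3′ segment, with a density below the chromosome mean, also had 6.02 and 5.19, the FLO11 5′ segment 4.81 and 4.04, and the FLO9 5′ segment 4.61 and 4.16, against 3.69 and 3.73 over the nuclear chromosomes. The part of amplified copies in this was not tested. With 1 read counted per position and strand, the 3′ segment of FLO11 was at 1.87 and 1.95 times the chromosome mean, that of FLO1 at 1.10 and 1.12 times, and the 5′ segment of FLO11 at 1.40 and 1.39 times. The 5′ segment of FLO9 was then at 1.15 and 1.14 times, and its 3′ segment at 0.568 and 0.583 times. The order of the segments thus differed, since the 3′ segment of FLO1 then lay below the 5′ segments of both FLO11 and FLO9 in each library. The 3′ segment of FLO11 remained the highest of the 5. Counting 1 read per position also limits how high a dense segment can go.

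Within the coding sequences 38 positions were called, of which 33 had calls of the separate libraries within 20 bp of each other. The exceptions lay at 184 and 337 in FLO9, 4240 in FLO1, and 763 and 4087 in FLO11. How many of all called positions of the chromosomes match in this way was not counted. The peaks described next were chosen for their height. The highest in FLO11 stood at coding base 3439, with 6.15 times the mean occupancy in replicate 1 and 5.43 times in replicate 2. Occupancy is here the number of reads whose 147 bp around the centre hold a base. Other peaks of FLO11 stood at 3937, with 5.91 and 4.24 times the mean, and at 3769, with 4.38 and 3.98 times. In FLO1 the highest stood at 2910, just beyond the last read-free stretch, with 5.17 and 5.41 times the mean, and the next at 3738, with 3.89 and 3.82 times. FLO9 had its highest peak at 2509, with 3.83 and 3.58 times the mean. It lay in the covered segment from 2443 to 2650, between 2 read-free stretches. All of these were called within 8 bp of each other in the libraries. The peaks at 2910 and 2509 lie within 150 bp of a read-free stretch, where reads of 1 strand can be lost.

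The promoters differed from the coding sequences and from one another. Mean occupancy over 3.5 kb upstream of FLO9 was 0.344 times the mean of chromosome 1 in replicate 1 and 0.331 times in replicate 2 (0.337 ± 0.00879, SD, n = 2 libraries). Upstream of FLO1 it was 0.594 and 0.556 times (0.575 ± 0.0267, SD, n = 2 libraries), over 3434 usable bp. Upstream of FLO11 it was 0.906 and 0.930 times the mean of chromosome 9 (0.918 ± 0.0169, SD, n = 2 libraries). The order FLO9, FLO1, FLO11 held in each library, with gaps larger than the spread between libraries, and all 3 promoters were below their chromosome mean. The values rest on 2738 and 2251 reads upstream of FLO9, 4576 and 3674 upstream of FLO1, and 6417 and 5713 upstream of FLO11.

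The FLO9 promoter was among the emptiest stretches of its chromosome. Of 3576 windows of 3.5 kb on chromosome 1, 0.559% were lower in replicate 1 and 0.839% in replicate 2, and the median window was at 0.893 and 0.892 times the mean. For the FLO1 promoter, 13.4% and 11.5% of these windows were lower. Over the 16 nuclear chromosomes, each window was set against the mean of its own chromosome. Of these 220578 windows, 0.0227% and 0.0186% were lower than the FLO9 promoter and 2.63% and 2.01% lower than that of FLO1. For FLO11 the shares were 41.7% and 46.7%. Of the windows of chromosome 1 lower than the FLO9 promoter, 19 of 20 in replicate 1 and 27 of 30 in replicate 2 shared no base with it. Low occupancy was not confined to the FLO9 promoter. Averaged over both libraries, successive windows between this promoter and the left chromosome end fell to 0.297 times the mean. Others farther toward that end were at 0.402 times, whereas the outermost was at 1.43 times. The FLO9 promoter thus lay beside other low sequence of the same chromosome arm. From 501 to 1000 bp beyond the FLO9 stop codon occupancy was 0.293 and 0.346 times the mean in the 2 libraries. The FLO11 promoter lay near the middle of its chromosome, with 43.5% and 45.1% of 7958 windows of chromosome 9 lower and a median window at 0.951 and 0.956 times the mean. With 1 read per position and strand the FLO9 promoter was at 0.598 and 0.562 times the mean, with 1.29% and 1.26% of windows lower, FLO1 at 0.824 and 0.804 times, and FLO11 at 0.934 and 0.950 times.

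**Figure D3:**
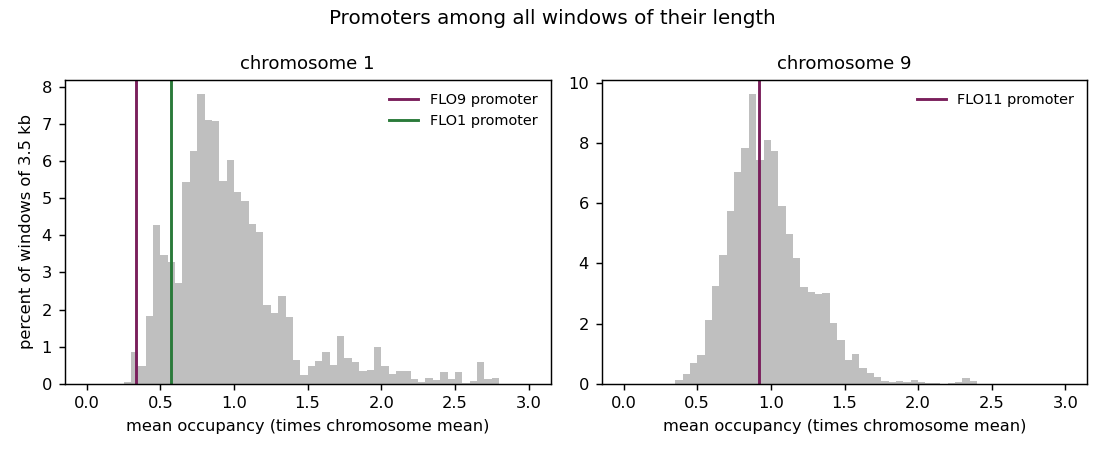
Mean occupancy of all windows of 3.5 kb, placed every 50 bp, on chromosomes 1 and 9, as percent of windows against times the chromosome mean (mean of both libraries). Vertical lines mark the promoters, with FLO9 at 0.337 in the left tail, FLO1 at 0.575, and FLO11 at 0.918 near the middle of chromosome 9.

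Windows of 50 bp divide the same occupancy over the same 3.5 kb, so their counts show how it was spread and are no separate support. A window was called low when its occupancy was under 0.5 times the chromosome mean in both libraries. Upstream of FLO9, 51 of 70 windows were low (72.9%), against 26.7% of all windows of chromosome 1. Upstream of FLO1, 29 of 68 windows were low (42.6%), against the same 26.7%. Upstream of FLO11, 14 of 70 windows were low (20.0%), against 23.2% of all windows of chromosome 9, so that its share was near the background. Over the 16 nuclear chromosomes 23.5% of windows were low. Without replicate 1 the low windows upstream of FLO11 numbered 22 of 70, against 28.5% of chromosome 9 in replicate 2 alone. Under a stricter limit of 0.25 times the mean, 29 windows were low upstream of FLO9 and 16 upstream of FLO1, against 12.0% of chromosome 1, and 3 upstream of FLO11, against 9.69% of chromosome 9. With 1 read per position and strand the counts were 24 of 70 upstream of FLO9 and 11 of 68 upstream of FLO1, against 12.7% of chromosome 1, and 4 of 70 upstream of FLO11, against 11.2% of chromosome 9. Windows over 1.5 times the mean in both libraries numbered 0 upstream of FLO9 and 4 upstream of FLO1, against 15.9% of chromosome 1, and 7 upstream of FLO11 (10.0%), against 16.4% of chromosome 9 and 15.0% of the 16 nuclear chromosomes.

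Low occupancy upstream of FLO9 was spread over the whole promoter. In steps of 500 bp it lay between 0.0830 ± 0.00587, from 3001 to 3500 bp upstream, and 0.496 ± 0.0437, from 1001 to 1500 bp upstream (SD, n = 2 libraries each). Even in the fullest step the libraries were at 0.465 and 0.527 times the mean. The low windows formed 7 runs, the longest of 800 bp from -3500 to -2701, on the side of GDH3, at 0.144 and 0.118 times the mean. Other deep runs were from -850 to -601, at 0.166 and 0.188 times, and from -2400 to -1801, at 0.214 and 0.182 times. No window exceeded 1.11 times the mean in replicate 1 or 1.07 times in replicate 2.

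The FLO1 promoter alternated between low runs and well-filled stretches. The step from 2001 to 2500 bp upstream was at 1.03 times the mean in both libraries, and those from 501 to 1000 and from 1001 to 1500 at 0.728 ± 0.0879 and 0.701 ± 0.0677 (SD, n = 2 libraries each). The far end, from 3001 to 3500, was at 0.225 ± 0.0598. It had 8 low runs, the longest of 400 bp, against 800 bp for the longest of FLO9. The 3 lowest were from -3000 to -2801, at 0.190 and 0.129 times the mean, from -3500 to -3101, at 0.194 and 0.132 times, and from -150 to -101, at 0.220 and 0.159 times. Windows nearer the start codon held bases within 150 bp of a read-free stretch and were left out. The edge of the last run at -101 is therefore set by that rule.

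The FLO11 promoter held both the fullest steps and sharp low runs. From 1501 to 2000 bp upstream it was at 1.47 times the mean in replicate 1 and 2.01 times in replicate 2 (1.74 ± 0.383, SD, n = 2 libraries), the step in which the libraries differed most. From 2501 to 3000 it was at 1.28 and 1.31 times. Between these and the gene lay a low step from 1001 to 1500, at 0.492 and 0.433 times, and the step next to the start codon was at 0.520 and 0.515 times. Of its 6 low runs, none was longer than 200 bp. The lowest were from -3500 to -3401, at 0.244 and 0.140 times, from -1350 to -1151, at 0.187 and 0.201 times, and from -350 to -201, at 0.373 and 0.350 times. Of its 70 windows, 26 were above the mean in both libraries, against 7 of 68 upstream of FLO1 and 1 of 70 upstream of FLO9. The share of all chromosome windows above the mean was not taken, so these counts compare the promoters only with one another.

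**Figure D4:**
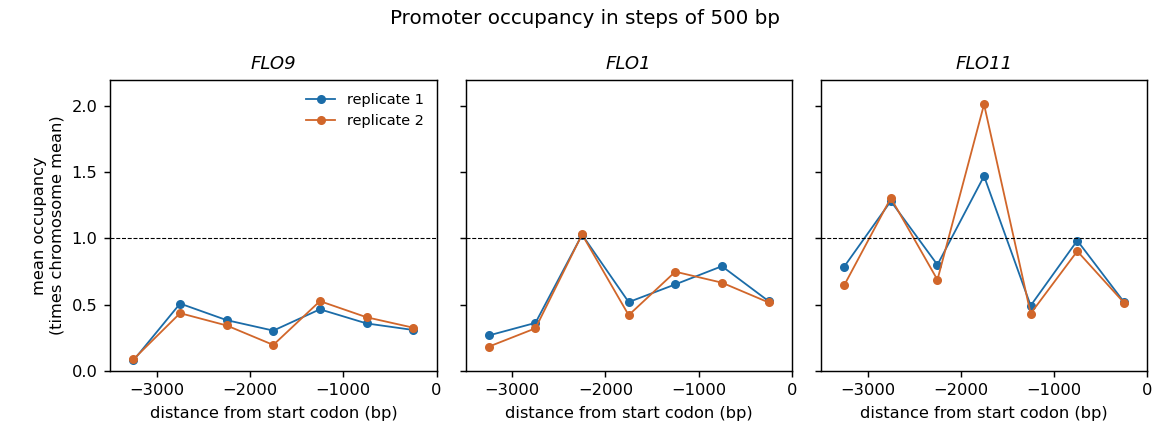
Mean occupancy in steps of 500 bp upstream of each start codon, as times the chromosome mean, for both libraries, with the dashed line at the chromosome mean. FLO9 stays at or below 0.527 throughout, FLO1 reaches 1.03 only from 2001 to 2500 bp upstream, and FLO11 reaches 1.47 and 2.01 from 1501 to 2000 bp upstream.

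Nucleosome positions were called as maxima of the smoothed read centres of both libraries, with no minimum height, so their number says little about how full they are. In the 3.5 kb, 15 positions were called upstream of FLO9, 13 upstream of FLO1 and 15 upstream of FLO11. Of these, 11, 9 and 14 had calls of the separate libraries within 20 bp of each other, 34 of 43 in all. The share matched in this way over all called positions was not taken, so these counts do not rate the agreement. The median distance between adjacent positions was 197.5 bp upstream of FLO9, 255.5 bp upstream of FLO1 and 200 bp upstream of FLO11, and the widest gaps were 418, 465 and 330 bp. The filling of the positions followed the order of the promoters, but it was read from the same occupancy as the promoter means. Occupancy was above the chromosome mean in both libraries at 0 of the 15 positions of FLO9, 2 of the 13 of FLO1 and 7 of the 15 of FLO11. No such share was taken over all called positions of the chromosomes, so none of these counts can be called high or low against them.

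The highest positions of FLO1, by the height of the smoothed read centres, stood at -593, -2103 and -1058. The position at -593 had 642 reads of replicate 1 and 451 of replicate 2 (1.97 and 1.60 times the mean). That at -2103 had 621 and 578 reads (1.90 and 2.05 times), and that at -1058 had 290 and 259 reads (0.889 and 0.918 times). In each, the calls of the libraries were at most 14 bp apart. The gap of 465 bp between the positions at -593 and -1058 held the low run from -950 to -701, at 0.289 and 0.255 times the mean. The highest position of FLO11 stood at -1601, with 552 reads of replicate 1 and 837 of replicate 2 (1.85 and 3.23 times the mean). It was called 2 bp apart in the libraries, but its occupancy differed between them by more than at any other position of the 3 promoters. The neighbouring position at -1757 had calls 140 bp apart in the libraries, so it was not found in replicate 1. The position at -3018 had 490 and 509 reads (1.64 and 1.96 times). Upstream of FLO9 the highest were at -2612, with 269 and 224 reads (0.825 and 0.794 times), at -1381, with 210 and 220 reads (0.644 and 0.780 times), and at -556, with 194 and 185 reads (0.595 and 0.656 times). The position at -2612 was called 94 bp apart in the libraries.

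The promoter profiles correlated between the libraries, and hardly between the promoters. Over the 50-bp windows of a promoter, Pearson's r between the libraries was 0.942 upstream of FLO9 (70 windows), 0.956 upstream of FLO1 (68 windows) and 0.888 upstream of FLO11 (70 windows). Between promoters, aligned at the start codon, r was 0.0694 for FLO9 and FLO1, -0.166 for FLO9 and FLO11, and -0.111 for FLO1 and FLO11. Neighbouring windows share reads, and these values are a description.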

How the data were processed

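Yeast mononucleosomal DNA of 2 libraries was sequenced from 1 end in 36 cycles. The authors deposited, per library, 1 line per aligned read with chromosome, start, end and strand. Every line spans 150 bp, so reads had been lengthened, and repeated positions were kept. The labels name build sacCer2, and the aligner is not given in the sources used here. The deposited lines carry no score.

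The 5′ end of each read was shifted inward by 47 and 42 bp, given that the strands correlated most at distances of 93 and 84 bp. Positions were called after Gaussian smoothing (SD 20 bp) with an exclusion zone of 147 bp. The steps were run on simulated reads of nearly evenly spaced nucleosomes. The simulation held no amplified copies and no reads that fit several places, so it does not cover their effect. Python 3.11.15, numpy 2.4.6, scipy 1.17.1, pandas 2.3.3 and matplotlib 3.10.9 were used. Intervals and floors cover counting error only.

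The members and settings were chosen with earlier results of these data known. Named were the 3 genes, the 3 lowest runs and the 3 highest positions of each promoter, and, chosen after their values were seen, the coding peaks and segments. Other genes were not analysed here, since the gene table is of R64. No sequence was used. Alternatives are given in the closing section.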

Additional observations from a re-analysis of the deposited data

How the results depend on the processing

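With 30 bases per read, an alternative chosen after seeing the data, the read-free coding bases were 2047 for FLO9, 2056 for FLO1 and 782 for FLO11. With the deposited lines of 150 bp they fell to 1271 for FLO9 and 235 for FLO11, since longer lines cover the edges of a stretch. With 1 read per position and strand, coding density was 0.913 for FLO9, 1.14 for FLO1 and 1.70 for FLO11, promoter occupancy was 0.580, 0.814 and 0.942, and low windows numbered 24, 11 and 4. With the bases beside read-free stretches kept, coding density was 1.24 for FLO9 and 1.90 for FLO1. Against the mean of all bases it was 1.18 and 1.94, and with reads moved by 73 bp it was 0.984 for FLO9. With no bases left out, promoter occupancy was 0.382 for FLO9, 0.645 for FLO1 and 0.979 for FLO11, and over 1 kb upstream it was 0.349, 0.632 and 0.731. Under a limit of 0.25 times the mean, 29, 16 and 3 windows were low. With a minimum height of 0.5 times the mean, 9 positions were called upstream of FLO9.

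With either library left out, where read-free stretches were also set from the other alone, coding density was between 0.987 and 1.07 for FLO9. Promoter occupancy was between 0.348 and 0.355 for FLO9 and between 0.546 and 0.588 for FLO1, and the low windows of FLO11 between 16 and 22. The other results moved by less than the spread between libraries or, for counts, by less than 1.5 times. Except where stated, the cause was not tested. In each of these settings promoter occupancy rose in the order FLO9, FLO1, FLO11 and stayed below the chromosome mean. No paired analysis was possible because there is 1 group. The authors' placing of reads with several positions, which is not stated, limits what can be read near read-free stretches.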

Other observations

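Occupancy dropped at the 3′ ends of FLO1 and FLO11. The first 500 bp beyond the stop codon of FLO11 were at 0.253 times the chromosome mean in replicate 1 and 0.232 times in replicate 2, against 3.89 and 3.15 times over its last 500 coding bases. Beyond FLO1 they were at 0.164 and 0.228 times, against 1.49 and 1.25 times over its last 500 coding bases. Neither flank held a read-free stretch. The next 500 bp were at 0.416 and 0.437 times beyond FLO11 and at 0.256 and 0.292 times beyond FLO1. Beyond FLO9 the first 500 bp were at 0.130 and 0.168 times, but 107 of them were read-free, as were 387 of its last 500 coding bases, so that no step can be read there. These flanks were chosen after the profiles had been seen.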
